A study of Mus musculus with 34 samples.

Results

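The circadian clock genes described here are 10 genes, the activators Arntl and Npas2, the repressors Per1, Per2, Per3, Ciart, Nr1d1 and Nr1d2, and the output factors Dbp and Tef. They were picked by symbol from the 48709 genes of the count table, and all 10 were found. All 10 were also among the 17616 genes that passed the filter on low counts and were tested. The choice was made with values of these same libraries known, and the comparison that prompted it is not recorded, so the levels and tests below describe these libraries and are no independent evidence for any pattern. RNA was sequenced from pancreatic islets of mice whose genotype is labelled RIP-DTR HTZ, a transgene in which the rat insulin promoter places a receptor for diphtheria toxin (DT) on insulin-producing cells. Untreated mice carry the transgene too. Islets were compared after DT, after streptozotocin (STZ, a toxin that enters beta cells) at 75 mg/kg, or after neither, to follow the response to partial beta-cell loss.

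At 10 weeks there were 3 libraries of DT mice on the diet labelled HFD (DT HFD), 4 of STZ mice on HFD (STZ HFD) and 4 of untreated mice on HFD (CTRL HFD). On the diet labelled SD there were 4 libraries of DT mice (DT SD), 4 of STZ mice (STZ SD) and 3 of untreated mice (CTRL SD). Earlier groups were DT mice 30 days after ablation (DT 30 DPA, 4 libraries), DT mice 5 days after ablation (DT 5 DPA, 4 libraries) and untreated mice whose labels name neither a diet nor a time (CTRL, 3 libraries). The labels give no age and no sex, do not say whether replicates are separate animals, and give no hour at which islets were taken. Transcripts of the clock follow the hour of the day in most tissues, so in every comparison below a difference in treatment, time or diet and a difference in the hour of collection cannot be told apart. P-values measure the spread between these samples, which may be technical.

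The mammalian clock is a feedback loop of transcription. The products of Arntl (BMAL1) and of Clock or its relative Npas2 pair up and bind E-boxes, from which they activate the Per, Cry, Nr1d, Dbp, Tef and Ciart genes. The PER and CRY proteins, and CIART (also called CHRONO), repress that pair, while NR1D1 and NR1D2 (REV-ERB alpha and beta) repress Arntl and Npas2 through RORE elements. DBP, TEF and their relative HLF activate genes with D-boxes, Per genes among them, so that Arntl and Npas2 usually peak when Dbp and the Nr1d genes are low. In islets the loop is known to time insulin secretion.

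Total counts ran from 11083117 to 18918348 per library. The 8 beta-cell markers, Ins1 and Ins2 among them, summed to between 29716 and 306918 CPM (counts scaled to a library size adjusted by TMM). In 8 libraries the 6 enterocyte markers, Apoa1 and Sis among them, summed to over 500 CPM, which are DT HFD replicate 1, STZ SD replicates 1 and 4, DT 30 DPA replicate 2, DT 5 DPA replicates 1, 2 and 4, and CTRL replicate 2. STZ HFD replicate 4 held 507668 CPM of the 8 acinar markers. Calls of members between groups that changed when the 8 libraries were left out are given beside each result. For the correlations with Arntl the number that passed without them is given at the end. The further gene lists were described with all 33 libraries only.

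Promoters are shown for 4 members whose start regions hold a motif of the loop, since the members are read out through these elements. Windows from 250 bases before to 50 after a start site were matched in RefSeq (assembly GRCm38.p6) for 9 members (12 windows), Per2 not among them. Capitals mark matches, and all sequences run 5′ to 3′ on the gene's strand. Ciart (chr3:95882179-95882478, minus strand) holds 3 E-boxes, CACGTG, with first bases at -116, -58 and -44 from the start site. Per3 (chr4:151044616-151044915, minus strand) holds 2 D-boxes, TTANGTAA, at -205 and -158. Per1 (chr11:69098699-69098998, plus strand) holds 1 E-box at -166, and Arntl (chr7:113207261-113207560, plus strand) holds 1 RORE core, TAGGTCA, at 31.
Ciart: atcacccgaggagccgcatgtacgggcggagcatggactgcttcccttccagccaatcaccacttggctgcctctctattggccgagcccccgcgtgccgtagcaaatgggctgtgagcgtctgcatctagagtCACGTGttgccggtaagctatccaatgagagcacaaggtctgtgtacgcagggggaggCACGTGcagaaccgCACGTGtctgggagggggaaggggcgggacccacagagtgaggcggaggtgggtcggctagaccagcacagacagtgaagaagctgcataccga
Per3: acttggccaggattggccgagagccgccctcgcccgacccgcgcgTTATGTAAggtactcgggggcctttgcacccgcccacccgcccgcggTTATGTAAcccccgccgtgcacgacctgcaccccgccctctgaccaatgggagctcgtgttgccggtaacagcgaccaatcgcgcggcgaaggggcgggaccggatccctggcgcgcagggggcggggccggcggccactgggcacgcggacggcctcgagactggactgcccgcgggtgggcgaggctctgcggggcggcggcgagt
Per1: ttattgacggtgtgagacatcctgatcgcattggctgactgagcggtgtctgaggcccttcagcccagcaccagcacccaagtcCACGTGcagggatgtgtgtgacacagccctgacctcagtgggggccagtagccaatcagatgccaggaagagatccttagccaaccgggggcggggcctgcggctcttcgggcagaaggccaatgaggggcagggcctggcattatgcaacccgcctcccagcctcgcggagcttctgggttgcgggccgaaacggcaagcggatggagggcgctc
Arntl: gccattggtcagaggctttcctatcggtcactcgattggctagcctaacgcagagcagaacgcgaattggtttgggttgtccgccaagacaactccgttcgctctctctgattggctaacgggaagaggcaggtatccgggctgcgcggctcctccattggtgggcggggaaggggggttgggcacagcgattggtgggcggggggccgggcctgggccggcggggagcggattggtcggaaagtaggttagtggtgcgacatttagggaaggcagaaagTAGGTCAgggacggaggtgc

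Of all 32851 RefSeq promoter windows of mouse, 7.15% held CACGTG, 2.32% TTANGTAA and 2.61% TAGGTCA on either strand. Tef has an E-box in both of its windows, at -127 and -138, and Nr1d1 has the variant CACGTT, found in 4.68% of windows, at -28 on the other strand. None of these letters, nor the other RORE core TGGGTCA (3.98% of windows), was in the windows of Npas2, Dbp and Nr1d2. The same holds for the other window of Per1 (chr11:69099902-69100201) and of Arntl (chr7:113207215-113207514). A lack of matches says nothing of elements elsewhere. No matches overlapped each other. A match is a description of the letters, and binding was not measured here.

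All 10 members were detected, and their levels spanned a wide range. By the authors' deposited TPM values, which allow genes to be compared per length, the medians over the 33 libraries were 37.0 TPM for Dbp, 35.6 for Nr1d1 and 33.9 for Nr1d2. Medians of 14.5, 12.8, 9.40 and 8.12 TPM belonged to Per1, Tef, Arntl and Per2. Per3, Ciart and Npas2 were the low genes, at 3.71, 2.16 and 0.911 TPM. By edgeR's quasi-likelihood F test all 10 differed among the 9 groups, with adjusted p between 2.19e-08 for Ciart and 0.01175 for Npas2, while 51.1% of all genes tested did so. The highest group mean was 33.2 times the lowest for Ciart, 16.1 times for Npas2 and 5.90 times for Per3, on the CPM scale. For Per1 that ratio was 2.03, for Nr1d2 2.56, for Tef 2.72, for Per2 2.85, for Arntl 3.12, for Nr1d1 4.13 and for Dbp 4.595. In bulk islets, fewer cells of a type and less RNA per cell cannot be told apart.

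**Figure D1:**
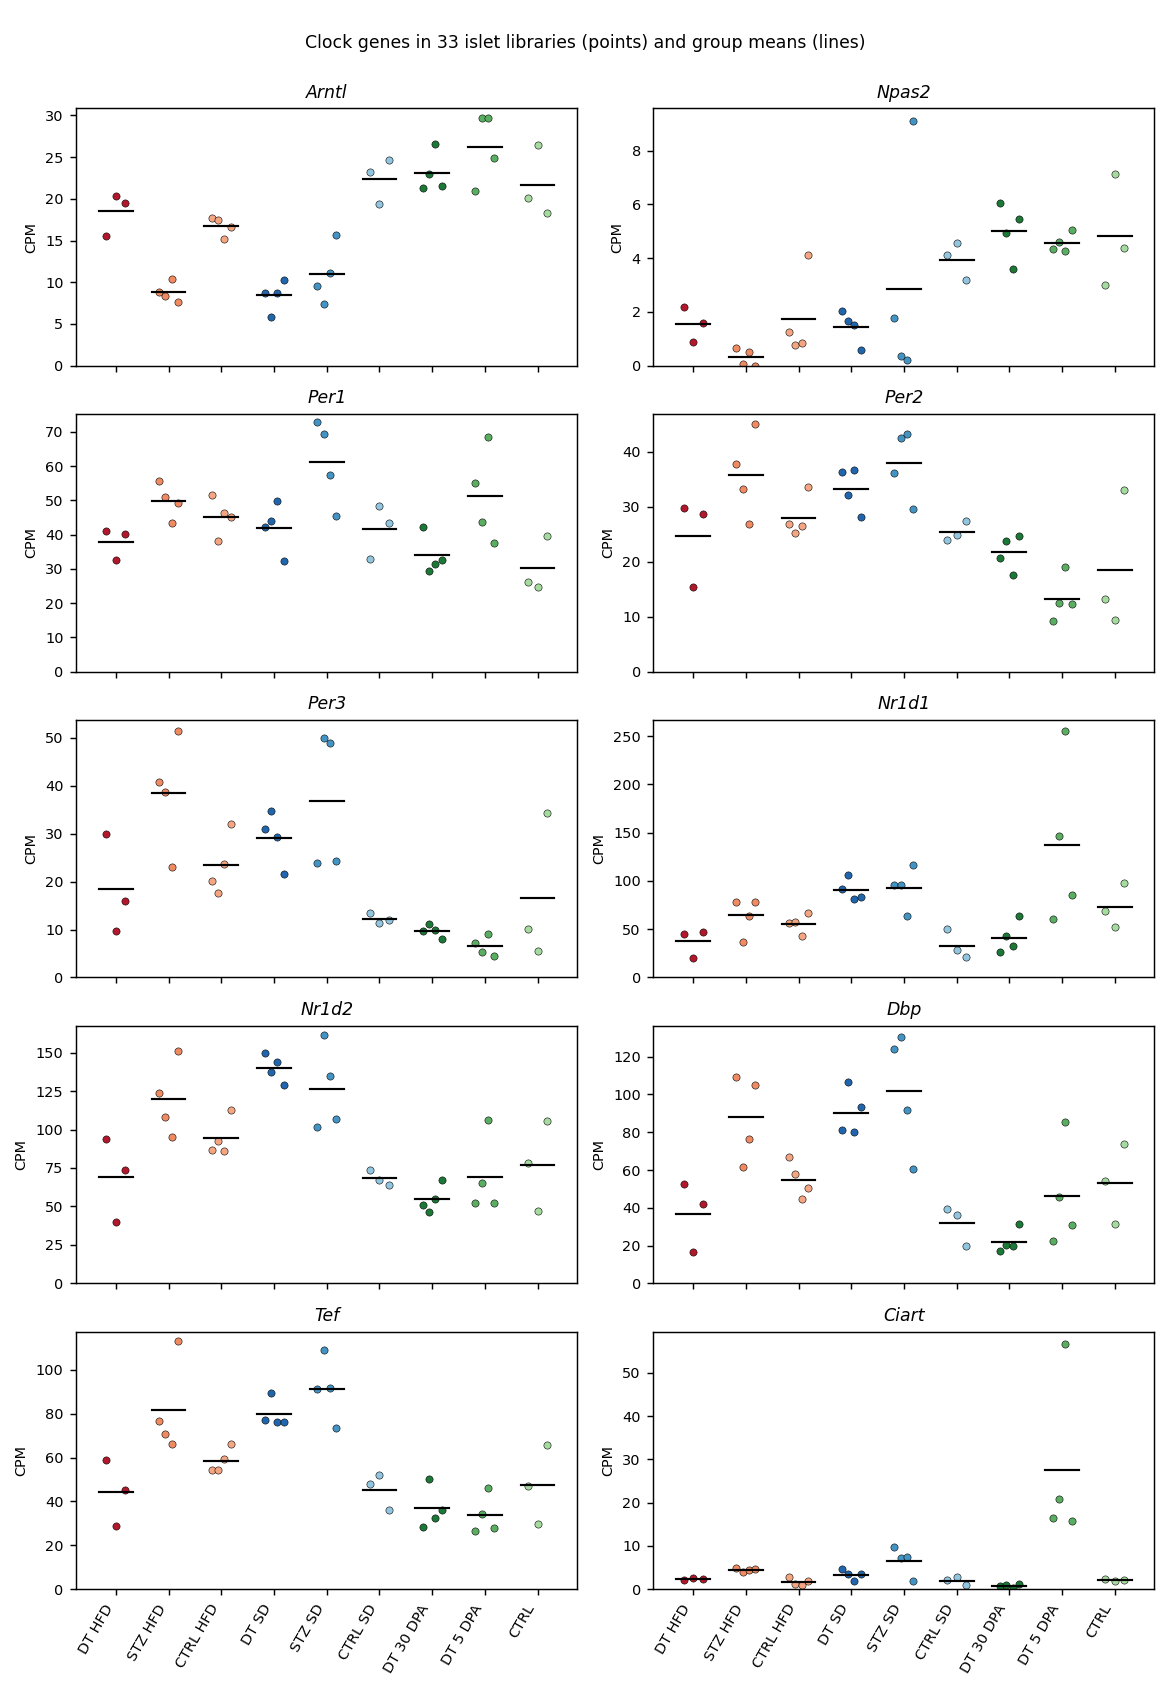
CPM (y axis, linear, own scale per gene) of each of the 10 clock genes in the 33 libraries of the 9 groups (x axis), with a line at each group mean. Arntl lies between 5.89 and 15.7 CPM in DT SD, STZ SD and STZ HFD and between 15.2 and 29.7 CPM in the other 6 groups, and Ciart stands at 15.85 to 56.6 CPM at DT 5 DPA.

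Arntl split the groups into a high and a low set. It averaged 18.5 ± 2.56 CPM in DT HFD, 23.1 ± 2.45 at DT 30 DPA and 26.3 ± 4.22 at DT 5 DPA (SD, n = 3, 4 and 4). The untreated groups stood at 16.7 ± 1.11 CPM in CTRL HFD, 22.4 ± 2.76 in CTRL SD and 21.6 ± 4.32 in CTRL (SD, n = 4, 3 and 3). The low set was STZ HFD at 8.80 ± 1.17, DT SD at 8.41 ± 1.84 and STZ SD at 10.9 ± 3.52 CPM (SD, n = 4 each). In the order of means every group overlapped its neighbour. The only library of the low set within the range of the high one was STZ SD replicate 4 at 15.7 CPM. For Dbp the same 3 groups had the highest means, 101.7 ± 32.4 CPM in STZ SD, 90.2 ± 12.4 in DT SD and 88.0 ± 22.8 in STZ HFD (SD, n = 4 each). The other Dbp means lay between 22.1 CPM at DT 30 DPA and 54.9 CPM in CTRL HFD, each overlapping the next.

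**Figure D2:**
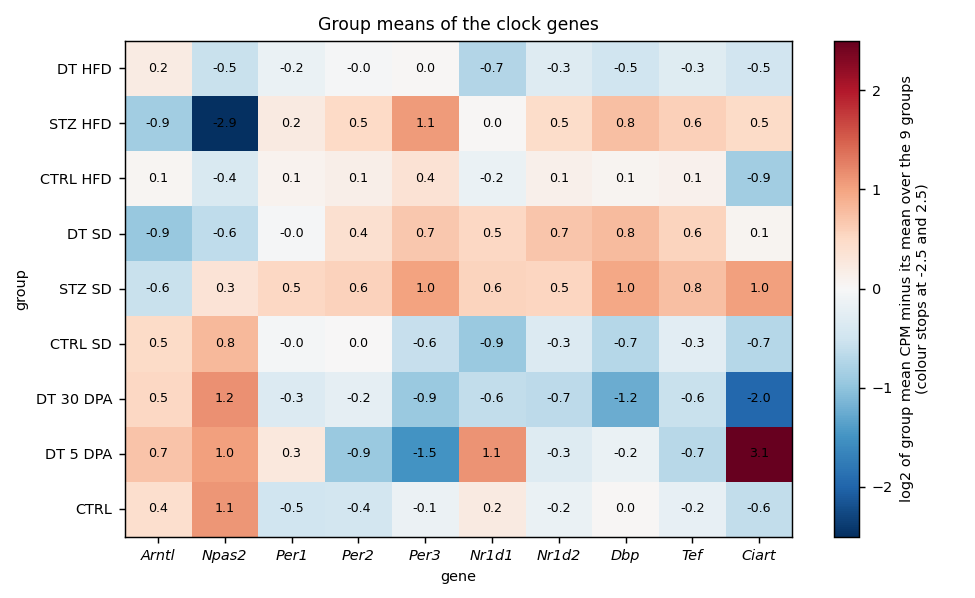
Group mean CPM of each gene (columns) in each group (rows), as log2 minus the mean of that gene's 9 log2 values with the value printed in each cell. In the rows STZ HFD, DT SD and STZ SD, Arntl is below 0 while Per2, Per3, Nr1d2, Dbp, Tef and Ciart are above 0.

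Islets of DT mice on SD had less Arntl at 10 weeks than those of untreated mice on SD. Arntl stood at 8.77, 5.89, 8.67 and 10.3 CPM in DT SD, against 23.2, 19.3 and 24.7 CPM in CTRL SD. No DT SD library reached the CTRL SD range. The log2 fold change was -1.41 (SE 0.20, edgeR adjusted p = 0.00152), the smallest p of the 17616 genes. Of the 10 members 1 was called, Arntl, against 0.0341% of all genes (0.0284% lower), and 6 had an unadjusted p below 0.05, as did 1400 genes. Arntl kept its call in each alternative run, the removal of each library included.

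The output factors and most repressors stood higher in DT SD than in CTRL SD without passing the test over all genes. Dbp was at 80.9, 106, 80.2 and 93.5 CPM in DT SD, against 39.3, 35.9 and 19.9 CPM in CTRL SD. The groups were apart by more than the spread within either, yet the log2 fold change of 1.51 (SE 0.40) had an edgeR adjusted p of 0.239. Nr1d1, which encodes REV-ERB alpha, was at 91.8, 106, 80.9 and 83.3 CPM in DT SD and at 50.1, 28.2 and 21.0 CPM in CTRL SD (log2 fold change 1.45, SE 0.41, edgeR adjusted p = 0.293). Nr1d2 averaged 139.9 ± 8.81 CPM in DT SD and 68.5 ± 5.03 CPM in CTRL SD (SD, n = 4 and 3). These 3 genes and Per3, Per2, Tef, Npas2 and Arntl make up 8 members whose libraries did not overlap between the groups, as did 17.0% of all genes tested. Npas2 was the other low one, at 0.574 to 2.05 CPM in DT SD and 3.19 to 4.55 CPM in CTRL SD. Per1 (log2 fold change 0.02, SE 0.20) and Ciart (0.78, SE 0.50) overlapped. The median log2 fold change of the members was 0.80, and that of all genes 0.02.

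Of the members, 4 were called in DT SD by the DESeq2 Wald test (Arntl, Nr1d1, Nr1d2 and Dbp), against 154 of 17616 genes. In a fit of the 2 groups alone 3 were called (Arntl, Per3 and Nr1d2), against 27 of 15603 genes. Without the 8 enterocyte libraries, none of which belongs to either group, 2 were called (Arntl and Nr1d2), against 22 of 18495 genes. The beta-cell markers summed to between 230253 and 252213 CPM in DT SD and between 161985 and 184144 CPM in CTRL SD, with 0 of 8 genes called. Their part in the clock values was not tested. Enterocyte markers were near 0 in DT SD (0.168 to 0.492 CPM, with Sis and Alpi at 0 in all 4 libraries) and at 0.182 to 9.77 CPM in CTRL SD.

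STZ mice on SD showed values on the same sides, measured against the same 3 CTRL SD libraries. Arntl was at 9.59, 7.36, 11.1 and 15.7 CPM in STZ SD, all below the 19.3 to 24.7 CPM of CTRL SD. With a log2 fold change of -1.03 (SE 0.20) it missed the threshold (edgeR adjusted p = 0.0635). Dbp was at 124, 130.5, 91.8 and 60.3 CPM in STZ SD, against 39.3, 35.9 and 19.9 CPM in CTRL SD (log2 fold change 1.68, SE 0.41, edgeR adjusted p = 0.0906). Every STZ SD library lay above every CTRL SD library for Dbp. By edgeR 0 members were called (0.00568% of all genes) and 8 had an unadjusted p below 0.05, as did 1997 of 17616 genes. The DESeq2 Wald test called 7, Arntl lower and Per3, Nr1d1, Nr1d2, Dbp, Tef and Ciart higher, and 689 of all genes. In 7 members the groups did not overlap, as in 6.9% of all genes. The median log2 fold change was 0.94 over the members and 0.02 over all genes.

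Per1, which glucocorticoids and stress signals induce as well as the clock, was at 72.7, 69.4, 57.4 and 45.4 CPM in STZ SD and at 32.9, 48.3 and 43.3 CPM in CTRL SD, so the groups overlapped (log2 fold change 0.56, SE 0.20, edgeR adjusted p = 0.211). Ciart stood at 9.87, 7.17 and 7.37 CPM in STZ SD replicates 1 to 3 and at 1.84 CPM in replicate 4, within the 1.00 to 2.84 CPM of CTRL SD. Replicate 4 also held 9.12 CPM of Npas2, against 1.78, 0.368 and 0.208 CPM in the other 3 and 3.19 to 4.55 CPM in CTRL SD. That replicate held 15043 CPM of the enterocyte markers and replicate 1 held 8582 CPM, while the CTRL SD libraries held 0.182 to 9.77 CPM. Without the 8 enterocyte libraries, which leaves 2 in STZ SD, 4 members were called, Arntl (log2 fold change -1.28, edgeR adjusted p = 0.0166) lower and Per3, Nr1d2 and Tef higher. In that fit 15 of 18495 genes were called. Without replicate 4 alone 1 was called, Arntl, without replicate 2 alone 2, Arntl and Dbp, and without replicate 3 alone 4, Arntl, Nr1d1, Dbp and Tef. The number of all genes called in these fits is not given here, so these counts cannot be read against a background. The removal of STZ SD replicate 1 or of any CTRL SD library brought no call.

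On HFD the same contrast for STZ gave a lower Arntl, and no other member passed the test. Arntl was at 8.85, 8.40, 10.4 and 7.59 CPM in STZ HFD, against 17.7, 17.4, 15.2 and 16.6 CPM in CTRL HFD. No STZ HFD library reached the CTRL HFD range. The log2 fold change was -0.92 (SE 0.19, edgeR adjusted p = 0.0352). Of the members 1 was called, Arntl, against 0.471% of all genes (0.329% higher and 0.142% lower). An unadjusted p below 0.05 was found in 4 members and in 2409 of 17616 genes. The call ended without STZ HFD replicate 2 (edgeR adjusted p = 0.117) or 4 (0.137), without CTRL HFD replicate 3 (0.0897), 4 (0.0850) or 5 (0.0870), with no filter on low counts (0.0597) and in a fit of the 2 groups alone (0.115).

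Npas2, the Arntl partner that can stand in for Clock, was counted 12, 1, 7 and 0 times in STZ HFD, against 18, 10, 13 and 51 times in CTRL HFD. In CPM that was 0.663, 0.0730, 0.508 and 0 in STZ HFD and 1.26, 0.771, 0.830 and 4.12 in CTRL HFD. The groups did not overlap, but the counts are small and the log2 fold change of -2.29 (SE 0.83) did not pass (edgeR adjusted p = 0.196). A count of 0 in STZ HFD replicate 4 does not show absence, and that library is the one with 507668 CPM of acinar markers. Ciart was at 4.98, 3.94, 4.35 and 4.68 CPM in STZ HFD and at 2.86, 1.31, 1.02 and 1.86 CPM in CTRL HFD, again with no overlap (log2 fold change 1.34, SE 0.46, edgeR adjusted p = 0.169). Arntl, Npas2, Tef and Ciart were the 4 members whose groups were apart, a share that 8.86% of all genes had. Tef averaged 81.6 ± 21.3 CPM in STZ HFD and 58.4 ± 5.57 CPM in CTRL HFD (SD, n = 4 each), and Dbp 88.0 ± 22.8 against 54.9 ± 9.71 CPM. STZ HFD replicate 4 had the highest Tef of all 33 libraries by CPM (112.9) but the lowest of its group by TPM (10.2). By TPM, which is not scaled by TMM, Tef averaged 15.8 ± 4.66 in STZ HFD and 15.5 ± 3.40 in CTRL HFD, and the groups overlapped. Arntl stayed apart by TPM, at 1.47 to 5.15 in STZ HFD and 7.985 to 11.1 in CTRL HFD. The median log2 fold change was 0.35 over the members and 0.02 over all genes.

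DT mice on HFD and untreated mice on HFD overlapped in each member. By edgeR's test 0 of 10 were called (0.00568% of all genes) and 0 had an unadjusted p below 0.05, against 2104 of 17616 genes. The DESeq2 Wald test called 0 as well, and in 0 members did the groups stand apart (11.5% of all genes). Arntl was at 15.6, 20.4 and 19.5 CPM in DT HFD, 1 within and 2 above the 15.2 to 17.7 CPM of CTRL HFD (log2 fold change 0.15, SE 0.20). Replicate 2 of DT HFD had the lowest Dbp, Nr1d1 and Nr1d2 of all 33 libraries, at 16.3, 20.6 and 39.9 CPM. In the other 2 DT HFD libraries Dbp was at 52.5 and 41.8 CPM, beside 44.6 to 67.1 CPM in CTRL HFD. Leaving out the 8 enterocyte libraries, DT HFD replicate 1 among them, keeps only replicates 2 and 3 of DT HFD. Then 1 member was called, Nr1d2, at a log2 fold change of -0.74 (edgeR adjusted p = 0.04999), and 822 of 18495 genes.

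The 2 diets were compared in untreated islets as well. Of the members 0 were called between CTRL HFD and CTRL SD by edgeR (0.0% of all genes) and 0 by the DESeq2 Wald test. By edgeR 2 members, Arntl and Per3, had an unadjusted p below 0.05, as did 439 of 17616 genes. Arntl averaged 16.7 ± 1.11 CPM in CTRL HFD and 22.4 ± 2.76 CPM in CTRL SD (SD, n = 4 and 3). Its log2 fold change was -0.42 (SE 0.20), and the adjusted p was 1. For Arntl, Per3, Nr1d2, Dbp and Tef, 5 members, the 2 groups did not overlap, against 7.7% of all genes.

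After DT, 5 members passed between the diets. Arntl rose in DT HFD, at 15.6, 20.4 and 19.5 CPM against 8.77, 5.89, 8.67 and 10.3 CPM in DT SD, with a log2 fold change of 1.14 (SE 0.20, edgeR adjusted p = 0.00315). All 3 DT HFD libraries lay above all 4 of DT SD. Dbp fell, at 52.5, 16.3 and 41.8 CPM in DT HFD against 80.9, 106, 80.15 and 93.5 CPM in DT SD (log2 fold change -1.29, SE 0.40, edgeR adjusted p = 0.0225). Its relative Tef fell too, at 58.8, 28.6 and 45.2 CPM in DT HFD and 76.4 to 89.55 CPM in DT SD (-0.85, SE 0.25, edgeR adjusted p = 0.01845). The REV-ERB genes moved with them. Nr1d1 fell to 45.4, 20.6 and 47.2 CPM in DT HFD, against 80.9 to 106 CPM in DT SD (-1.26, SE 0.40, edgeR adjusted p = 0.0266). Nr1d2 fell to 94.1, 39.9 and 73.85 CPM in DT HFD, against 129 to 149 CPM in DT SD (-1.01, SE 0.27, edgeR adjusted p = 0.0107). In these 5 genes, the ones called, the groups did not overlap.

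Of all genes 23.5% were called between DT HFD and DT SD (15.0% higher and 8.46% lower) and 39.1% had groups apart, so the 5 of 10 members on either count are read against a high background. The members' median log2 fold change was -0.60, and that of all genes -0.01. Npas2, Per1, Per2, Per3 and Ciart did not pass, with log2 fold changes of 0.10 (SE 0.80), -0.15 (SE 0.20), -0.43 (SE 0.29), -0.65 (SE 0.43) and -0.55 (SE 0.49). All 5 calls ended without DT HFD replicate 2, when 0 of all genes were called. Their adjusted p was then between 0.0824 for Arntl and 0.199 for Nr1d1, which also missed the threshold without DT SD replicate 1 (0.0537) or 2 (0.0504). Without the 8 enterocyte libraries 6 members were called, these 5 and Per3, but so were 6481 of the 18495 genes tested in that fit. The cell makeup differed as well. Of 8 beta-cell markers 5 were lower in DT HFD (29716 to 110513 CPM in sum, against 230253 to 252213 in DT SD), of 5 lymphocyte markers 3 were higher (854 to 1495 against 52.1 to 509 CPM) and of 6 enterocyte markers 4 were higher (0.864 to 1941 against 0.168 to 0.492 CPM). Their part in the clock values was not tested.

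Whether diet altered the effect of DT was tested as an interaction, with the difference between DT HFD and CTRL HFD set against that between DT SD and CTRL SD. By edgeR 0 members passed (0.0% of all genes), although 6 had an unadjusted p below 0.05, as did 2751 of 17616 genes. The DESeq2 Wald test called 4 members, Arntl, Nr1d1, Nr1d2 and Dbp. Its count over all genes in this comparison is not given here, so these 4 cannot be read against a background. Arntl had the smallest p of all genes, with an interaction of 1.56 on the log2 scale (SE 0.28, edgeR adjusted p = 0.12). Dbp had -2.08 (SE 0.56) and Nr1d1 -2.01 (SE 0.57), both at an edgeR adjusted p of 0.282. Without the 8 enterocyte libraries, which leaves 2 in DT HFD, 6 members passed, Arntl at 1.66 (edgeR adjusted p = 0.0181) and Per3, Nr1d1, Nr1d2, Dbp and Tef between -1.487 and -2.435. In that fit 349 of 18495 genes passed. For STZ the interaction called 0 members by either tool (0.0% of all genes by edgeR). By edgeR 1 member had an unadjusted p below 0.05, Nr1d1 (-1.28, SE 0.54), as did 1163 of 17616 genes.

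Between STZ HFD and STZ SD 0 members were called (0.136% of all genes) and 0 had groups apart (2.44%). Npas2 alone of the members had an unadjusted p below 0.05 by edgeR, as did 2293 of 17616 genes. Npas2 had 12, 1, 7 and 0 counts in STZ HFD and 25, 4, 2 and 139 counts in STZ SD. Its log2 fold change of -3.03 (SE 0.83, edgeR adjusted p = 0.0834; called by the DESeq2 Wald test) was 0.27 without the 8 enterocyte libraries, which include STZ SD replicates 1 and 4. Without STZ SD replicate 2 or 3 it passed edgeR's test. Arntl differed by -0.31 (SE 0.19) and Dbp by -0.21 (SE 0.36).

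**Figure D3:**
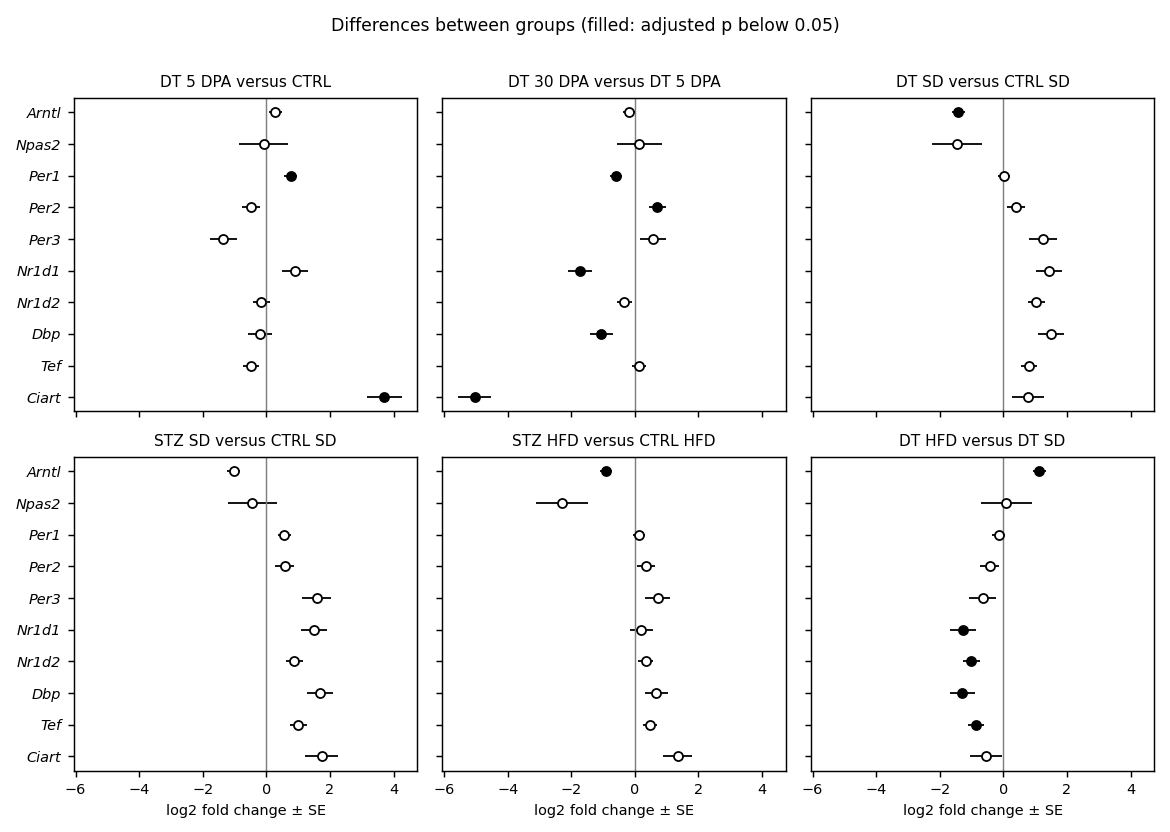
Log2 fold change (x axis) of each clock gene (y axis) with its standard error in 6 comparisons, filled where the edgeR adjusted p is below 0.05. Ciart has the widest changes, 3.71 for DT 5 DPA versus CTRL and -5.04 for DT 30 DPA versus DT 5 DPA, and Arntl is at -1.41, -1.03 and -0.92 in the ablated groups DT SD, STZ SD and STZ HFD against their controls and at 1.14 in DT HFD against DT SD.

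At 5 days after ablation Ciart and Per1 were higher than in untreated islets. At DT 5 DPA Ciart stood at 16.5, 20.8, 56.6 and 15.85 CPM (252, 295, 718 and 266 counts), against 2.26, 1.80 and 2.21 CPM in CTRL (39, 30 and 36 counts). Each DT library lay above each CTRL library, and no library of the other 8 groups exceeded 9.87 CPM. Ciart rose 13.1-fold (log2 fold change 3.71, SE 0.55, edgeR adjusted p = 7.87e-05), and it was called in each alternative run. Without replicate 3, the highest, the log2 fold change was 3.08. Replicate 3 held 4.10 CPM of enterocyte markers, against 1299 to 3001 CPM in the other 3. With the enterocyte libraries left out it was the only one at DT 5 DPA, and Ciart then differed by 4.665 on the log2 scale (edgeR adjusted p = 0.000147), the lone library being assumed to vary like the others.

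Per1 rose at DT 5 DPA as well, at 55.1, 43.6, 68.5 and 37.5 CPM, against 26.2, 24.6 and 39.6 CPM in CTRL. The ranges overlapped, since CTRL replicate 3 lay above DT 5 DPA replicate 4. The log2 fold change was 0.77 (SE 0.21, edgeR adjusted p = 0.0249). That call ended without CTRL replicate 1 (0.126) or 2 (0.0923), without DT 5 DPA replicate 1 (0.06285) or 3 (0.101), and in a fit of the 2 groups alone (0.251). Ciart and Per1 were the 2 members called, against 5.39% of all genes (3.8% higher and 1.59% lower), and Ciart the 1 with groups apart, against 15.4%.

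Per3 did not pass at DT 5 DPA, where it stood at 7.22, 5.295, 9.15 and 4.41 CPM, against 10.1, 5.51 and 34.3 CPM in CTRL (log2 fold change -1.35, SE 0.43, edgeR adjusted p = 0.0631). That value rests on CTRL replicate 3, without which it was -0.27. CTRL replicate 3 also had the highest Per2 (33.05 CPM), Nr1d1 (97.9 CPM), Dbp (73.9 CPM) and Tef (65.6 CPM) of its group, so that CTRL itself was spread widely. Without CTRL replicate 2 Per3 passed and Per1 did not. The DESeq2 Wald test called Per1, Per3 and Ciart, among 1398 of 17616 genes. Nr1d1 was at 60.8, 146.5, 254.9 and 85.4 CPM at DT 5 DPA and at 69.2, 52.55 and 97.9 CPM in CTRL, overlapping (log2 fold change 0.90, SE 0.40, edgeR adjusted p = 0.202). Arntl (0.28, SE 0.20), Npas2 (-0.08, SE 0.77), Per2 (-0.48, SE 0.29), Nr1d2 (-0.16, SE 0.26), Dbp (-0.21, SE 0.38) and Tef (-0.49, SE 0.25) did not pass. The medians were -0.12 over the members and -0.05 over all genes. All 6 macrophage markers were higher at DT 5 DPA, in sum 4454 to 6670 CPM against 571 to 1586 CPM in CTRL, and 3 of 5 mesenchymal markers were higher (2344 to 3264 against 571 to 945 CPM). Their part in the rise of Ciart and Per1 was not tested.

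By 30 days Ciart had fallen to the lowest group mean of the 9. It stood at 0.839, 0.958, 0.271 and 1.24 CPM at DT 30 DPA (13, 15, 4 and 17 counts), against 15.85 to 56.6 CPM at DT 5 DPA. Ciart fell 32.9-fold between these times (log2 fold change -5.04, SE 0.53, edgeR adjusted p = 2.83e-07) and was called in each alternative run. The log2 fold change was -4.41 without DT 5 DPA replicate 3 and -6.18 without the enterocyte libraries, which leaves 1 library at DT 5 DPA. Nr1d1 fell to 26.45, 42.9, 32.3 and 63.6 CPM at DT 30 DPA, against 60.8, 146.5, 254.9 and 85.4 CPM at DT 5 DPA. Only DT 30 DPA replicate 4 and DT 5 DPA replicate 1 crossed, and the log2 fold change was -1.73 (SE 0.37, edgeR adjusted p = 0.00138), past the threshold in each alternative run. Without the enterocyte libraries it was -2.655.

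Of the members 5 were called between DT 30 DPA and DT 5 DPA, Ciart, Nr1d1, Per1 and Dbp lower and Per2 higher, against 30.5% of all genes (16.5% higher and 13.9% lower). Ciart was the 1 with groups apart, against 33.3%. Dbp was at 17.0, 20.5, 19.6 and 31.4 CPM at DT 30 DPA and at 22.6, 45.8, 85.3 and 31.0 CPM at DT 5 DPA (log2 fold change -1.06, SE 0.36, edgeR adjusted p = 0.02825). Its call ended without DT 5 DPA replicate 3 (-0.58, edgeR adjusted p = 0.1999), without DT 30 DPA replicate 1 (0.0573), 2 (0.0645) or 3 (0.0649), with the replicate number as a block (0.0514) and in a fit of the 2 groups alone (0.0701). Without the enterocyte libraries Dbp was at -1.92 and was called. Per1 was at 42.1, 29.5, 31.3 and 32.7 CPM at DT 30 DPA, against 37.5 to 68.5 CPM at DT 5 DPA (-0.59, SE 0.19, edgeR adjusted p = 0.0185), and missed the threshold without DT 30 DPA replicate 2 (0.0582) or DT 5 DPA replicate 1 (0.0542) or 3 (0.0904). Per2 rose to 20.7, 23.7, 17.7 and 24.7 CPM at DT 30 DPA, against 9.19, 12.6, 19.1 and 12.3 CPM at DT 5 DPA. Its log2 fold change of 0.71 (SE 0.27, edgeR adjusted p = 0.0498) lay at the threshold. That call ended without any 1 of 6 libraries, which are DT 30 DPA replicates 1, 2 and 4 and DT 5 DPA replicates 1, 2 and 4. It ended too with DESeq2's size factors (edgeR adjusted p = 0.0627), with no filter on low counts (0.0878) and with hormone genes left out of the scaling (0.0609). Without the enterocyte libraries the log2 fold change was 0.13 (edgeR adjusted p = 0.896). Arntl (-0.19, SE 0.18), Npas2 (0.13, SE 0.71), Per3 (0.57, SE 0.40), Nr1d2 (-0.33, SE 0.24) and Tef (0.13, SE 0.23) did not pass. All 6 macrophage and all 5 mesenchymal markers were lower at DT 30 DPA (416 to 935 and 666 to 870.4 CPM in sum) than at DT 5 DPA, and 7 of 8 beta-cell markers were higher (126026 to 306918 against 32259 to 121969 CPM). Their part in the clock values was not tested.

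Set against CTRL, the libraries shared with the earlier comparison, DT 30 DPA had 0 members called by edgeR (0.233% of all genes). Nr1d1, Dbp and Ciart, 3 members, had an unadjusted p below 0.05, as did 4465 of 17616 genes. The DESeq2 Wald test called 1 member, Dbp, and 1849 of all genes. Dbp was at 17.0 to 31.4 CPM at DT 30 DPA and at 31.5 to 73.9 CPM in CTRL (log2 fold change -1.27, SE 0.38, edgeR adjusted p = 0.0665). Ciart, at 0.271 to 1.24 CPM at DT 30 DPA and 1.80 to 2.26 CPM in CTRL, had a log2 fold change of -1.33 (SE 0.51, edgeR adjusted p = 0.108). In these 2 members the groups did not overlap, as in 12.4% of all genes. Without CTRL replicate 3, 1 member was called, Per2, higher. How many of all genes were called in that fit is not given here.

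The untreated groups CTRL SD and CTRL were compared with each other. By edgeR 0 members were called (0.00568% of all genes) and by the DESeq2 Wald test 0. By edgeR Per1 and Nr1d1, 2 members, had an unadjusted p below 0.05, as did 2020 of 17616 genes. Nr1d1 was at 50.1, 28.2 and 21.0 CPM in CTRL SD and at 69.2, 52.55 and 97.9 CPM in CTRL (log2 fold change -1.14, SE 0.42, edgeR adjusted p = 0.365), the 1 member with groups apart (14.4% of all genes). Without CTRL replicate 3, 1 was called, Per2, higher in CTRL SD, and the number of all genes called in that fit is not given here. Arntl differed by 0.05 (SE 0.21).

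The ratio of Dbp to Arntl counts within a library depends neither on depth nor on scaling. It was 9.23, 18.05, 9.24 and 9.06 in DT SD and 12.96, 17.75, 8.26 and 3.85 in STZ SD, against 1.70, 1.86 and 0.804 in CTRL SD. Each ablated library on SD exceeded each CTRL SD library. On HFD the ratio was 3.37, 0.801 and 2.14 in DT HFD and 12.3, 7.34, 7.36 and 13.8 in STZ HFD, against 3.80, 3.31, 2.93 and 3.03 in CTRL HFD. Here STZ HFD lay above CTRL HFD and DT HFD did not. Of the early groups, DT 30 DPA had 0.798, 0.894, 0.738 and 1.46 and DT 5 DPA 1.08, 1.545, 2.875 and 1.25, against 2.69, 1.19 and 4.05 in CTRL, both overlapping with CTRL. The ratio of Per3 to Arntl was 0.252 ± 0.0871 at DT 5 DPA and 0.863 ± 0.892 in CTRL, 3.72 ± 1.58 in DT SD and 0.551 ± 0.0589 in CTRL SD (SD, n = 4 and 3 in both pairs).

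**Figure D4:**
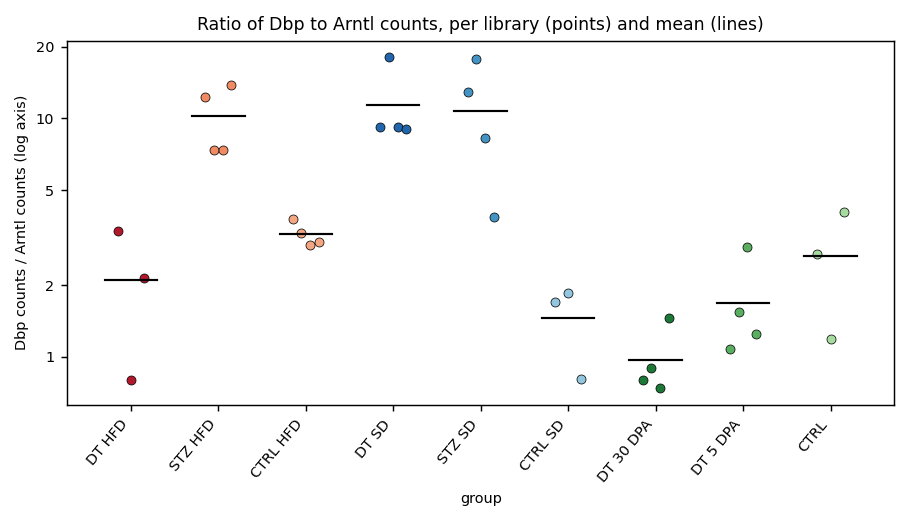
Ratio of Dbp to Arntl counts (y axis, log scale) in each library of the 9 groups (x axis), with a line at the group mean. STZ HFD, DT SD and STZ SD average 10.2, 11.4 and 10.7, while the other 6 groups average between 0.973 at DT 30 DPA and 3.27 in CTRL HFD.

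Within groups, where neither treatment nor diet differs, the members still varied together from library to library. Among Per1, Per2, Per3, Nr1d1, Nr1d2, Dbp and Tef the 21 pairs had a Pearson r of log2 CPM between 0.14 and 0.84 with a median of 0.68, once each group mean was subtracted. The closest pairs were Per2 with Nr1d2 (0.84), Per2 with Per3 (0.83) and Nr1d1 with Dbp (0.82). These are descriptions over 33 libraries, which share depth and cell makeup between genes.

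Arntl had mostly negative values with these 7. Its within-group r was -0.53 with Per3 (permutation p = 0.00867, adjusted 0.0538; Spearman's rho -0.50, p = 0.0207), the strongest of 9 relations computed. With Per1 r was -0.50 (permutation p = 0.0189, adjusted 0.0568; rho -0.49, p = 0.01805), and with Tef -0.45 (permutation p = 0.01195, adjusted 0.0538; rho -0.45, p = 0.0276). Of the 9 relations 0 passed after the Benjamini-Hochberg adjustment of these two-sided permutation tests within groups. The other r values were -0.35 for Per2, -0.32 for Nr1d2, -0.31 for Dbp, -0.30 for Ciart, 0.04 for Nr1d1 and 0.32 for Npas2. Without the 2 libraries farthest in Arntl, STZ SD replicates 2 and 4, r was -0.48 for Per3, -0.40 for Per1 and -0.40 for Tef, while it was -0.29 for Per2, -0.23 for Nr1d2, -0.17 for Dbp and -0.05 for Ciart. Without STZ SD replicate 4 alone it was -0.19 for Dbp and -0.02 for Ciart, so that the Ciart value rests on that library.

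**Figure D5:**
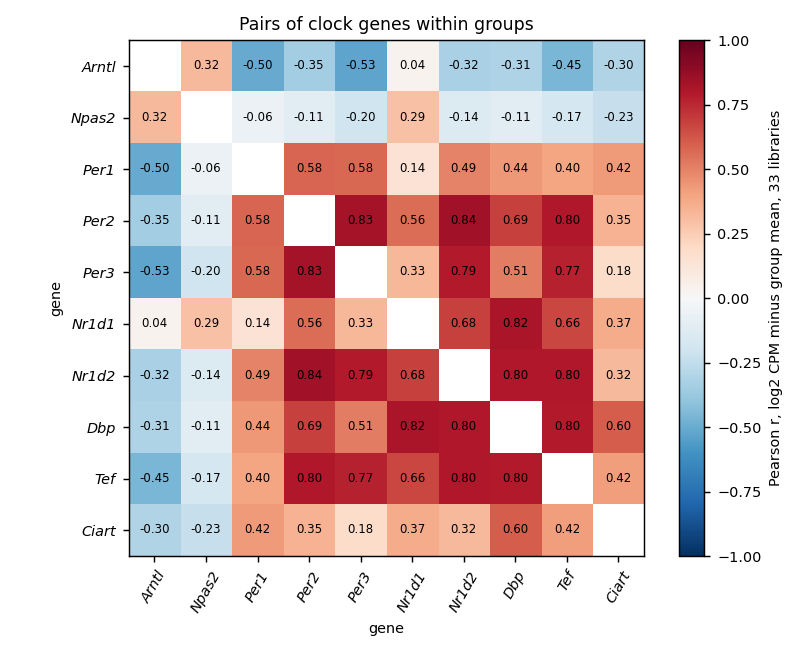
Pearson r of log2 CPM minus the group mean over 33 libraries for each pair of clock genes (both axes), from -1 in blue to 1 in red, with r printed in each cell. Per2, Per3, Nr1d2, Dbp and Tef form a block between 0.51 and 0.84, while the Arntl row lies between -0.53 and 0.32.

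Of 14 further genes of the clock, 9 differed among the groups by edgeR's test, against 51.1% of all genes. At DT 5 DPA 1 of 14 rose against CTRL (3.8% of all genes), Nfil3, which encodes a repressor that competes with DBP and TEF for D-boxes (23.8 ± 6.08 against 6.67 ± 2.47 CPM, log2 fold change 1.83, SE 0.35, edgeR adjusted p = 0.00159). Between DT 30 DPA and DT 5 DPA 7 of 14 were called, 2 higher and 5 lower, against 16.5% of all genes higher and 13.9% lower. The list's median log2 fold change was 0.02, as was that of all genes. Bhlhe40, a repressor at E-boxes, was at 29.4 ± 5.86 CPM at DT 30 DPA and 56.2 ± 9.61 CPM at DT 5 DPA (log2 fold change -0.93), and Hlf, the third relative of Dbp and Tef, at 6.82 ± 0.996 and 17.4 ± 9.03 CPM (-1.35). Cry1, a partner of the PER proteins, fell (-0.58), and Clock, the usual partner of Arntl, rose to 92.2 ± 8.38 CPM at DT 30 DPA, against 60.3 ± 5.36 CPM at DT 5 DPA (0.61, edgeR adjusted p = 0.0094).

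Between DT HFD and DT SD 3 of 14 were called, a share no larger than the 23.5% of all genes. Rora, which activates through the RORE elements that the REV-ERB proteins repress, fell to 28.9 ± 7.60 CPM in DT HFD, against 51.4 ± 4.50 CPM in DT SD (log2 fold change -0.83, SE 0.23, edgeR adjusted p = 0.013). Hlf was lower (-1.10) and Timeless, better known for DNA replication in mammals, was higher (0.89). In no other comparison did edgeR call one of the 14. Of 7 genes with rhythmic transcripts in many tissues, 6 differed among the 9 groups, against 51.1% of all genes. Nampt, the enzyme of NAD salvage, rose at DT 5 DPA against CTRL (1.26, edgeR adjusted p = 0.000549), as did the zinc finger factor Klf10 (0.59), 2 of 7, against 3.8% of all genes. Between DT 30 DPA and DT 5 DPA 3 of 7 fell, Nampt (-1.37), Klf10 (-0.93) and Tspan4 (-1.68), against 13.9% of all genes. Klf9 was lower in DT HFD than in DT SD (-1.15), 1 of 7 called against 23.5% of all genes. Por, the P450 reductase, was lower in STZ HFD than in STZ SD (-1.32), 1 of 7 called against 0.136% of all genes.

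Per1 is also a target of glucocorticoids and of growth and stress signals. Of 6 glucocorticoid targets, Per1 included, 2 rose at DT 5 DPA against CTRL, Per1 and the phosphatase gene Dusp1 (65.7 ± 22.0 against 20.5 ± 8.22 CPM, log2 fold change 1.68). Of 8 immediate early genes 4 rose, Atf3 (2.62), Fosb (2.31), Egr1 (2.20) and Jun (1.03), which encode transcription factors. Of all genes 3.8% rose there. Between DT 30 DPA and DT 5 DPA 4 of the 6 glucocorticoid targets fell, Dusp1 (-1.56), Tsc22d3 (-0.99), Per1 (-0.59) and Sgk1 (-0.70), against 13.9% of all genes. All 8 immediate early genes fell there, led by Egr1 (-3.22), Junb (-1.65), Atf3 (-2.45) and Fosb (-2.79). In other comparisons 1 of 8 was called lower at DT 30 DPA against CTRL (0.0568% of all genes), Ier2 (log2 fold change -1.105, edgeR adjusted p = 0.04999). In DT HFD against DT SD 1 of 8 was called higher, Junb (0.97), as were 15.0% of all genes. Their part in the Per1 change was not tested. In DT SD and STZ SD against CTRL SD edgeR called no gene of either list.

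Genes on the opposite strand share exonic bases with 4 members, and since the strand setting of the counting is not given, reads of the 2 strands cannot be told apart with certainty. In GENCODE M21, Dbp (chromosome 7, 45705088 to 45710203, plus strand, 4 exons) shares 539 of its 2993 exonic bases with Sphk2, and Nr1d1 (chromosome 11, 98767932 to 98775333, minus strand, 8 exons) shares 263 of 3077 with Thra. The overlaps of Tef with Gm17597 (193 bases) and of Arntl with Gm45355 (33 bases) are smaller. Sphk2, a sphingosine kinase gene, fell between DT 30 DPA and DT 5 DPA (log2 fold change -0.83, edgeR adjusted p = 0.0054), as Dbp did (-1.06). In DT HFD against DT SD, Sphk2 was at -0.09 where Dbp was at -1.29, and at DT 5 DPA against CTRL it was at 0.78 (edgeR adjusted p = 0.0482) where Dbp was at -0.21. Thra, a thyroid hormone receptor gene, was at 0.52 between DT 30 DPA and DT 5 DPA where Nr1d1 was at -1.73, and at -0.48 (edgeR adjusted p = 0.225) in DT HFD against DT SD where Nr1d1 was at -1.26.

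Among 13186 genes ranked by Pearson r of log2 CPM with Dbp over the 33 libraries, Hlf was first (0.83), followed by Cys1 (0.78), Pim3 (0.72), Pigc (0.68) and Gsta3 (0.67). The lowest were Akirin1 (-0.68), Kpna1 (-0.66), Bysl (-0.65), Stip1 (-0.64) and Kpnb1 (-0.64). For Arntl the highest were Nacc1 (0.80), Relt (0.75), Leo1 (0.73), Mapk14 (0.73) and Vps18 (0.71), and the lowest Zfand1 (-0.76), Dpm1 (-0.685), Cys1 (-0.68), Herpud1 (-0.68) and Pisd-ps2 (-0.68). Once group means were subtracted, Hlf kept 0.75 and Cys1 0.83 with Dbp, while Nacc1 had 0.26 with Arntl. These values describe the libraries, which share depth and cell makeup, and the genes were picked by rank.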

How the data were processed

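Islet RNA was extracted with an RNeasy Mini kit and made into libraries with a QIAseq stranded mRNA kit, per the labels' protocols. Reads were placed on mm10, per the submitters' processing notes. The sources used here do not give the aligner, counter, annotation or strand setting. Per the file headers, 4 measures per library were deposited. The deposited counts are total counts per gene as the authors made them, whole numbers with no normalization, and all tests used them. The deposited TPM values were used only to compare levels between genes, and for Tef and Arntl in STZ HFD and CTRL HFD. The deposited RPKM values, and a deposited column headed CPM that was treated as a score, were not used. The table held 0 columns of other samples, and 99.26% of its identifiers were found in GENCODE M21.

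The members and the gene lists were chosen with earlier results of these data known. Of 34 libraries, 33 fell into 9 groups by their labels. The remaining library has a title and a treatment label that differ, and was left out of every comparison. Counts of 48709 genes were filtered with filterByExpr (minimum count 10, minimum total 15), leaving 17616, scaled by TMM and fitted over all 9 groups with edgeR's quasi-likelihood test (edgeR 4.0.16, limma 3.58.1, R 4.3.3), with Benjamini-Hochberg adjustment over all tested genes and a threshold of 0.05. "Called" means past that threshold, and groups are apart where no library of one reaches the range of the other. The CPM given here were computed from the counts and the TMM-scaled library size, and log2 CPM for correlations used a prior count of 2. No pair of libraries in a group agreed within counting noise (smallest chi-square per degree of freedom 25.7). Correlations with Arntl were tested by 100000 permutations within groups (Python 3.11.15, numpy 2.4.6, scipy 1.17.1), and figures were drawn with matplotlib 3.10.9. The fits were tested on simulated data with 200 changed genes. For DT 5 DPA against CTRL 26% of 2-fold and 69% of 4-fold changes were called, and for DT HFD against DT SD 31% and 73%. Of the genes called there, 1.04% and 1.89% had not been changed. A member that did not pass can therefore still differ.

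All 10 members are described. Genes of 4 lists (14 of the clock, 7 rhythmic in many tissues, 6 glucocorticoid targets with Per1 among them, 8 immediate early) are named where they passed, up to 4 per list and comparison by smallest adjusted p, and the 5 genes with the highest and the 5 with the lowest r to Arntl and Dbp are named. Alternatives were DESeq2's size factors (DESeq2 1.42.0), no filter, a stricter filter (50 counts in total and 1 CPM in 3 libraries), scaling without the hormone genes, a replicate block, no libraries over 500 CPM of enterocyte markers, the compared groups alone, the DESeq2 Wald test and each library left out in turn. For correlations they also included a prior count of 0.5, no group means and no far libraries.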

Additional observations from a re-analysis of the deposited data

Results flagged for a closer look

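In 3 of 60 pairs of a member and a group of 4 libraries, 1 library stood far from the other 3 by Dixon's criterion (critical value 0.829 for 4 samples), and chance gives about 1 in 20. Ciart was at 56.6 CPM in DT 5 DPA replicate 3, against 15.85 to 20.8 CPM in the other 3. Without that library Ciart differed from CTRL by 3.08 on the log2 scale (edgeR adjusted p = 0.000307). Tef was at 89.55 CPM in DT SD replicate 2, against 76.4 to 76.9 CPM in the others. Npas2 was at 4.12 CPM (51 counts) in CTRL HFD replicate 5, against 0.771 to 1.26 CPM (10 to 18 counts) in the others.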

How the results depend on the processing

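All 10 members differed among the 9 groups with each library left out in turn (10 to 10 called). With each library of the compared groups left out, the members called were 1 to 1 for DT SD against CTRL SD, 0 to 4 for STZ SD against CTRL SD, 0 to 0 for DT HFD against CTRL HFD, 0 to 1 for STZ HFD against CTRL HFD, 0 to 0 for CTRL HFD against CTRL SD, 0 to 5 for DT HFD against DT SD, 0 to 1 for STZ HFD against STZ SD, 1 to 2 for DT 5 DPA against CTRL, 2 to 4 for DT 30 DPA against DT 5 DPA, 0 to 1 for DT 30 DPA against CTRL, 0 to 1 for CTRL SD against CTRL and 0 to 0 for both interactions. For most of these fits the number of all genes called is not given here. The correlations with Arntl that passed ranged from 0 to 6.

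Without the enterocyte libraries the members called were 2 for DT SD and 4 for STZ SD against CTRL SD, 1 for DT HFD against CTRL HFD and 6 for the interaction of DT and diet, and 2 correlations passed. In the same order of comparisons 22, 15, 822 and 349 of 18495 genes were called. The DESeq2 Wald test called 4 for DT SD and 7 for STZ SD against CTRL SD, 1 for DT 30 DPA against CTRL, 1 for STZ HFD against STZ SD and 4 for the interaction of DT and diet. In the first 3 of these it called 154, 689 and 1849 of 17616 genes. For the remaining comparisons its count over all genes is not given here, so those calls cannot be read against a background. In fits of the compared groups alone there were 3 for DT SD against CTRL SD, 0 for STZ HFD against CTRL HFD and 1 for DT 5 DPA against CTRL. STZ HFD against CTRL HFD had 0 with no filter, and STZ SD against CTRL SD 1 with hormone genes left out. With DESeq2's size factors 3 correlations passed, and 7 with no group means subtracted. The cause was not tested. Of single members' log2 fold changes, 681 alternative values kept direction and call, 39 lost and 41 gained the call, and 1 changed sign, Npas2 between STZ HFD and STZ SD (0.27 without the enterocyte libraries). The r of Arntl with Nr1d1 turned to -0.224 with no group means, -0.0219 without the 2 far libraries, -0.256 without the enterocyte libraries, and -0.0548, -0.0952 and -0.0554 without STZ SD replicate 4, DT 5 DPA replicate 1 or DT 5 DPA replicate 3. Leaving out 1 library at a time gave -0.0952 to 0.102 for Nr1d1 and -0.0146 to 0.424 for Npas2. With Npas2 r turned to -0.0732, -0.0988 and -0.0146 without the far, the enterocyte or STZ SD replicate 4 libraries.

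Same-numbered libraries of different groups had a median correlation of 0.0109 over 115 pairs, 37 of them over 0.1. Their r ran from -0.66 to 0.647, and differently numbered pairs had a median of 0.00287. These values do not settle whether the numbers pair the samples. With the replicate block the members called were 0 for STZ HFD against CTRL HFD (Arntl adjusted p 0.11 by edgeR), 4 for DT 30 DPA against DT 5 DPA (Dbp adjusted p 0.0514 by edgeR), 5 for DT HFD against DT SD, 2 for DT 5 DPA against CTRL and 1 for DT SD against CTRL SD, and 14 of 33 libraries were closest to one of their own number. Low counts limit Npas2 and Ciart, with libraries at 0 and 4 counts.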

Other observations

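One library has a title of the form CTRL HFD and a treatment label of DT, and its group is not known. In it Arntl was at 15.0 CPM, Npas2 at 0.684, Per1 at 34.5, Per2 at 23.95 (385 counts), Per3 at 10.0 (161 counts), Nr1d1 at 37.1, Nr1d2 at 65.2, Dbp at 30.5, Tef at 34.6 and Ciart at 2.43 CPM (39 counts).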
